A study of Mus musculus with 2 samples.

Results

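Alternative splicing and constitutive splicing depend on a shared set of RNA-binding proteins, and the genes that encode their best known families were compared here between hormone-treated and untreated stromal cells. The genes were taken by symbol: Srsf for SR proteins, Hnrnp for heterogeneous nuclear ribonucleoproteins, Snrp (other than Snrpn) for proteins of the small nuclear ribonucleoproteins (snRNPs), Sf3a and Sf3b for the SF3 complexes, and Lsm for Sm-like proteins. A gene entered when at least 1 probe set of the array named it and no other gene. This gave 58 genes of 18193 on the array: 10 SR, 19 hnRNP, 8 snRNP, 9 SF3 and 12 LSm genes. The cells were urogenital sinus mesenchyme (UGM) from male C57BL/6 mice at day 16, the stroma around the epithelium that forms the prostate. The untreated group was kept for 72 h in RPMI with Plasmocin, an antibiotic, at 5 µg/ml and 5% serum stripped with dextran charcoal, a step that removes most steroids. The T+E2 group had Plasmocin and serum at the same 5 µg/ml and 5%, with testosterone (12 nM) and estradiol-17 beta (120 pM), also for 72 h. Each group was 1 sample on 1 array, and the sample titles read 24 h where the other labels that give a time read 72 h. The descriptions call the untreated cells confluent and the T+E2 cells nearly so, whereas the growth protocol gives 80% for both, so density and treatment cannot be told apart.

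The spliceosome is built from snRNPs, each a small nuclear RNA held in a ring of Sm proteins with a few particle-specific proteins. SF3A and SF3B are parts of the U2 snRNP and hold it on the intron's branch site. The LSm2 to LSm8 proteins form the ring of U6 snRNA, while LSm1 takes the place of LSm8 in a cytoplasmic ring that promotes mRNA decapping. SR proteins mostly promote the use of exons that carry their binding sites, and hnRNP proteins coat nascent transcripts and often oppose exon use. Genes of both families commonly make alternative transcripts that are degraded, through which their proteins limit their own level.

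The array has 45101 probe sets, and their median intensity was 7.60 untreated and 6.12 with T+E2. Values are log2 of the deposited intensity, and every difference is T+E2 minus untreated. A gene was measured when at least 1 array reached a log2 of 5, which 10267 genes did. The 18 control probe sets for hybridization spikes had differences of -0.25 to 0.09 (log2), which gives the scale of a technical difference, not of a difference between cultures. With 1 array per group no difference here has a replicate check and no test was run, and precision is limited by that number. Of 11 mesenchyme markers on the array, 9 were measured, among them Vim and Col1a1, while Hoxa13 and Hoxd13 lay under the floor on both arrays. All 9 were higher with T+E2, where 55.8% of all measured genes were, and their median difference was 0.26. The highest were Foxf2 (1.28, from 5.22, near the floor) and Tbx18 (1.02). Of 9 epithelial markers, Cdh1 (5.37 and 7.57) and Trp63 (7.99 and 8.46) were measured. Epcam, Krt5, Krt8, Krt14, Krt18, Krt19 and Foxa1 were under the floor on both arrays. Of the leukocyte markers Lyz2 (10.06 and 8.53) was measured, and Ptprc, Cd68 and Csf1r were under the floor. Of the smooth muscle markers Tagln was at 11.88 and 10.45 and Acta2 at 14.62 and 14.75, while Myh11 and Cnn1 were under the floor. The neural marker Ncam1 was at 10.25 and 11.18, and Sox10 was under the floor. Of the endothelial markers Tek (9.82 and 10.02) was measured, and Pecam1, Cdh5 and Kdr were under the floor. The epithelial list summed to an intensity of 328 untreated and 574 with T+E2, and the leukocyte list to 1083 and 387. The part of these markers in the results below was not tested.

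The share of splicing factor genes well above 0 was smaller than over all measured genes, while the share well below 0 was similar. The classes did not lie at the same place. Of the 58 genes, 55 were measured, all of them on both arrays. Lsm7 (4.81 and 3.86), which completes the U6 ring, Lsm11 (4.56 and 4.48), part of the U7 snRNP of histone mRNA processing, and Srsf12 (2.40 and 3.13) were under the floor on both arrays. By 2-fold or more, 0 of the 55 genes were higher after hormone treatment, where 4.96% of all measured genes were. Lsm1, Lsm3 and Srsf2 were at least 2-fold lower (5.45%), where 4.01% of all measured genes were. After the median of all measured genes was subtracted, 408 of all measured genes were 2-fold higher and 520 lower, in place of 509 and 412. Differences of 0.5 or more were seen in 2 of 55 genes, against 21.6% of all measured genes. Differences of -0.5 or less were seen in 10 of 55 (18.2%), near the 17.4% of all measured genes. The median over the 55 genes was -0.05 (interquartile range -0.36 to 0.25), and over all measured genes 0.07 (-0.32 to 0.45). With averaged probe sets these medians were -0.18 and 0.01. In RNA from a whole culture, fewer cells with a transcript and less of it per cell cannot be told apart.

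**Figure D1:**
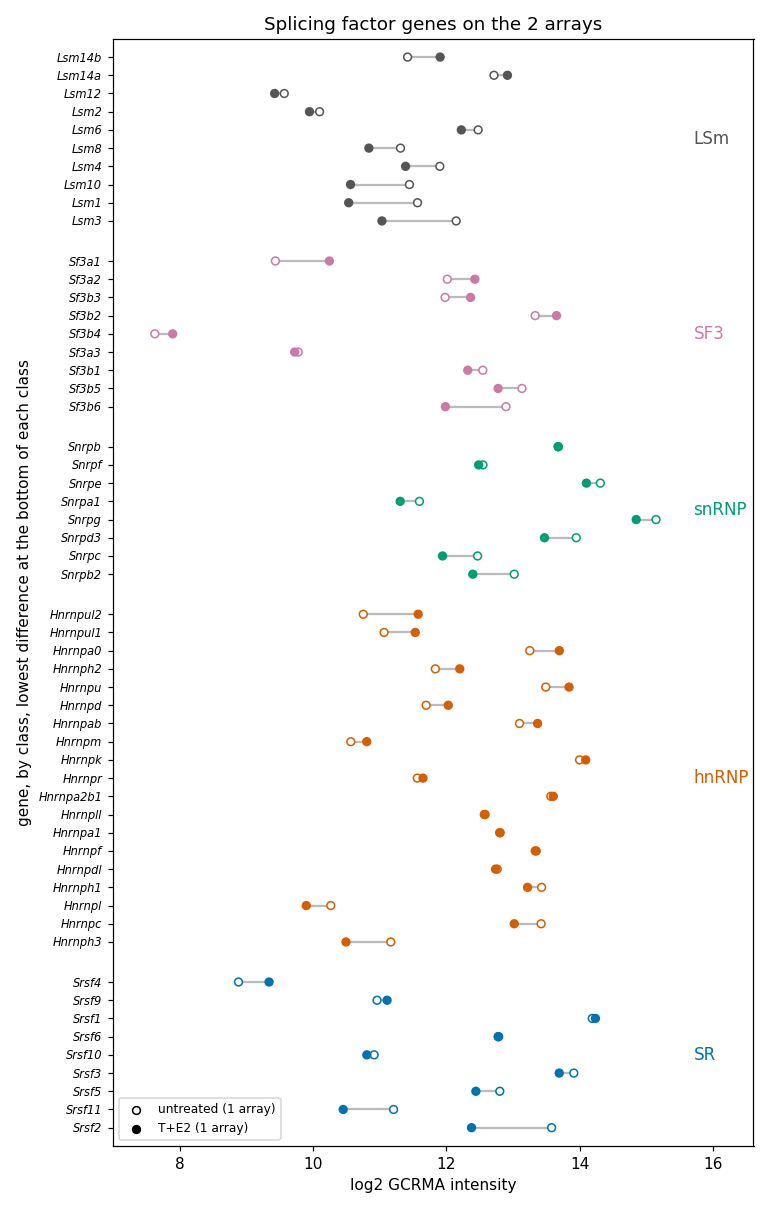
Log2 intensity (horizontal axis) of each measured splicing factor gene (vertical axis, grouped by class and ordered by difference) without treatment (open points) and with T+E2 (filled points), 1 array each. The largest gaps are those where Srsf2, Lsm1, Lsm3, Lsm10 and Sf3b6 were lower and Sf3a1 and Hnrnpul2 higher with T+E2; levels of different genes are not comparable.

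By class, the median difference was -0.29 for the 8 snRNP genes and -0.36 for the 10 LSm genes. It was -0.11 for the 9 SR genes, 0.09 for the 19 hnRNP genes and 0.27 for the 9 SF3 genes. Values under 0 were found for 7 of 8 snRNP genes (87.5%) and 8 of 10 LSm genes (80%), where 43.7% of all measured genes lay under 0. Values above 0 were found for 12 of 19 hnRNP genes (63.2%) and 5 of 9 SF3 genes (55.6%), near the 55.8% of all measured genes, and for 4 of 9 SR genes (44.4%). Ranges of the classes overlapped widely: SF3 genes ran from -0.91 to 0.81, LSm genes from -1.11 to 0.49 and hnRNP genes from -0.67 to 0.82. The snRNP genes had the narrowest range, -0.62 to 0.0035. The distance between class medians, taken against the hnRNP genes, was -0.45 for LSm, -0.38 for snRNP, -0.19 for SR and 0.18 for SF3. These values depended on the probe sets used. When the probe sets of a gene were averaged, the class medians were -0.23 (SR), 0.0099 (hnRNP), -0.03 (SF3) and -0.23 (LSm). On that basis the distance was -0.24 for LSm and -0.04 for SF3. With the median of a gene's measured probe sets, the SR median was -0.25 and its distance -0.34, and the SF3 median was 0.13 and its distance 0.045. Without probe sets marked as cross-matching, the snRNP median was -0.52 and its distance -0.61. The snRNP and LSm medians lay under 0 on each of these bases.

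**Figure D2:**
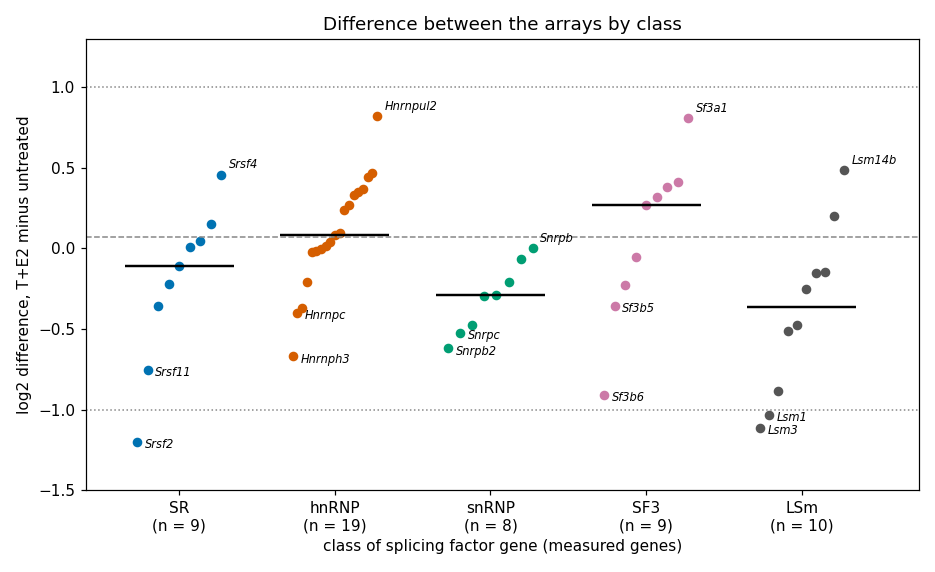
Log2 difference (T+E2 minus untreated) of each measured gene by class, with the class median as a black bar, the median of all measured genes (0.07) as a dashed line and 2-fold as dotted lines. All but 1 of the 8 snRNP points lie under 0, and only Srsf2, Lsm1 and Lsm3 pass 2-fold.

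Promoters are shown for 5 genes that stand at the ends of their classes: Snrpb2 and Lsm3, the lowest of the snRNP and LSm genes, Srsf2, the lowest SR gene, and Sf3b6 and Sf3a1, the lowest and highest SF3 genes. Each is the 250 bases before the gene's outermost start in RefSeq (build GRCm38.p6), 5′ to 3′ on the gene's strand. Capitals mark 3 motifs, each searched on both strands. The core of ETS family sites was searched as CCGGAAG. The CCAAT box was searched by the letters of its name. The TATA box was searched as TATAAA.
Snrpb2 (chr2:143062819-143063068, plus strand): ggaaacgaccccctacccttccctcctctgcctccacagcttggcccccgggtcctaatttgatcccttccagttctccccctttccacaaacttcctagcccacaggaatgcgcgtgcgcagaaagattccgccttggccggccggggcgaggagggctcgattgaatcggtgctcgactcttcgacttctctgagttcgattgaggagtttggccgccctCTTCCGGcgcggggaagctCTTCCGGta
Lsm3 (chr6:91515785-91516034, plus strand): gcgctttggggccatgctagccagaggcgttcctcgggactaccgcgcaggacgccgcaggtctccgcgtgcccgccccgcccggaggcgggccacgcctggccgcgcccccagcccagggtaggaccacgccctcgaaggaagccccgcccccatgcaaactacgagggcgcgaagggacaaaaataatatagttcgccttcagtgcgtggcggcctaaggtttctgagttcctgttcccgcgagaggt
Srsf2 (chr11:116853095-116853344, minus strand): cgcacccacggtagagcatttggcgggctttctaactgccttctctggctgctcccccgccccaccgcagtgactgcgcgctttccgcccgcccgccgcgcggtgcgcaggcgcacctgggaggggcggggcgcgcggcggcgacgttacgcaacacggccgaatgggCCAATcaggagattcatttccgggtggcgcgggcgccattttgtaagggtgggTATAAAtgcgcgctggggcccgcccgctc
Sf3b6 (chr12:4817358-4817607, plus strand): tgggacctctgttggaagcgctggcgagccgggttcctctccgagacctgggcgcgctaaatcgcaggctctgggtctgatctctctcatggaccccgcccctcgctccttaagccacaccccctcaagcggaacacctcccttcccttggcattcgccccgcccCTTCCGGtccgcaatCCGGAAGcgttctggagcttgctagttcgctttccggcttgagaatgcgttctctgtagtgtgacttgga
Sf3a1 (chr11:4160104-4160353, plus strand): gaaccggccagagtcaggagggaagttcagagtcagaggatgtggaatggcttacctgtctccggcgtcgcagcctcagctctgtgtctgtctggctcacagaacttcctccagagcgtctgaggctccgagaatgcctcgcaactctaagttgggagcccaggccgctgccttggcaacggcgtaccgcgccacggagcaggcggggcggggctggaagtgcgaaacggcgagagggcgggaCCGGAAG

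The ETS core stood at 2 places before Snrpb2, at 2 places before Sf3b6 and at 1 place before Sf3a1. Srsf2 had 1 CCAAT box and 1 TATA box, and Lsm3 had none of the 3 motifs. A RefSeq promoter was matched for 47 of the 55 measured genes. CCGGAAG was found before 6 of 7 SF3 genes, all but Sf3b1, and before 3 of 7 snRNP genes, 3 of 9 SR genes, 2 of 17 hnRNP genes and 0 of 7 LSm genes. Among promoters of all measured genes 15.2% held it, and among all 27025 promoters 7.07%. The motif thus stood before SF3 genes that were higher (Sf3a1, Sf3a2, Sf3b2, Sf3b3) and before 2 that were not (Sf3a3, Sf3b6). CCAAT was found before 11 of 17 hnRNP genes (64.7%), against 37.2% of promoters of measured genes and 34.5% of all promoters. TATAAA stood before Srsf2, Srsf3, Hnrnpm and Sf3b3 (4 of 47, 8.51%), against 6.13% of promoters of measured genes and 13% of all. The full palindromic elements of the androgen and glucocorticoid receptors and of the estrogen receptors (each searched without mismatch, with any 3 bases between the arms) were in none of the 47. They are also rare in general, at 1 and 17 of all 27025 promoters. AGAACA, a single arm of the androgen element and so contained in it, was before 3 of 47 genes (6.38%; Srsf6, Hnrnpd and Snrpg), against 9.99% of promoters of measured genes and 16.1% of all. A match gives letters in a window and does not show that a factor binds there.

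The 5 Sm core genes with a probe set naming them alone were lower with T+E2 or level. The other core genes, Snrpd1 (-0.61) and Snrpd2 (-0.73), were lower on probe sets that name other loci as well. Snrpd3, which encodes an Sm protein of every major snRNP but U6, was at 13.94 untreated and 13.47 with T+E2, a difference of -0.48. Its 3 probe sets were all lower, by -0.48 to -0.02. Snrpg followed at 15.14 and 14.84 (-0.30), with a second probe set at -0.70. Snrpe stood at 14.30 and 14.10 (-0.21) and Snrpf at 12.55 and 12.48 (-0.06). Snrpb, which encodes SmB, was at the same level on both arrays, 13.67 and 13.68, though its other probe set lay at -0.52. The 5 measured core genes had a median of -0.21, and their differences except those of Snrpd3 and Snrpg lie within the range of the spikes.

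The members of the class specific to U1 or U2 snRNPs, Snrpb2, Snrpc and Snrpa1, lay under 0 too, and Snrpb2 and Snrpc were the lowest of the class. Snrpb2, the U2 protein U2B″, was at an intensity of 8279 untreated and 5382 with T+E2 (-0.62), with all 3 probe sets lower. Snrpc, the U1-C protein that helps U1 contact the 5′ splice site, was at 12.47 and 11.94 (-0.53), measured by 1 probe set. Snrpa1, the U2 protein that pairs with U2B″, was at 11.59 and 11.31 (-0.29), with 3 probe sets from -0.41 to -0.29. Of the 16 measured snRNP probe sets, which come from 8 genes, 15 were under 0, where 43.1% of all measured probe sets were. Snrnp70, the U1-70K gene, falls outside the symbol rule and stood on the other side, at 9.69 and 10.10 (0.42). Snrpa, the U1-A gene, also lay above 0 (0.25), on a probe set that names other loci as well.

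Among LSm genes, those of the rings were lower and the Lsm14 genes higher. The 5 measured U6 ring genes were all lower: Lsm3 by -1.11, Lsm4 by -0.51, Lsm8 by -0.47, Lsm6 by -0.25 and Lsm2 by -0.15. Their median was -0.47, and of all measured genes 43.7% lay under 0. Lsm6 and Lsm2 lie within the range of the spikes. The second probe set of Lsm8 lay on the other side (0.10). Lsm3 had an intensity of 4529 untreated and 2095 with T+E2, 2.16-fold lower, on its only probe set. Lsm1, the subunit of the cytoplasmic decapping ring, was at 3032 and 1483, 2.04-fold lower, also on 1 measured probe set. Lsm10, part of the U7 ring, was at 11.44 and 10.56 (-0.88). Lsm12, Lsm14a and Lsm14b encode larger proteins that have an Sm-like domain but belong to no such ring. Of these, Lsm14a, a translational repressor of P-bodies, was at 12.71 and 12.91 (0.20), with its 3 measured probe sets above 0. Its relative Lsm14b was at 11.42 and 11.90 (0.49), and Lsm12 was at 9.57 and 9.43 (-0.14). A second probe set of Lsm12 was 2.01-fold higher with T+E2, from 163 to 328, so its 2 measured probe sets lie on opposite sides, 1.15 apart. With the trend of the difference with gene length removed, described below, Lsm1 stood at -0.99 and Lsm3 at -0.95. The median of the U6 ring genes was then -0.30, and Lsm2 stood at 0.04.

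SF3 genes lay on both sides of 0. Sf3a1, the largest subunit of SF3A, was highest, at an intensity of 693 untreated and 1215 with T+E2 (1.75-fold, 0.81), and its 3 measured probe sets were all higher, by 0.56 to 1.32. Sf3a2, another SF3A subunit, followed at 12.01 and 12.42 (0.41), with both probe sets higher. Sf3b3 was at 11.98 and 12.36 (0.38), Sf3b2 at 13.33 and 13.65 (0.32) and Sf3b4 at 7.63 and 7.90 (0.27). The third SF3A subunit, Sf3a3, was level at 9.78 and 9.73 (-0.05). Sf3b1, the large subunit that encloses the branch point adenosine, was at 12.54 and 12.32 (-0.23), but its 3 other probe sets lay at or above 0, up to 0.27. Sf3b5 was at 13.13 and 12.77 (-0.36) and Sf3b6, the p14 protein at the branch point, at an intensity of 7596 and 4049 (1.88-fold lower, -0.91). All 3 measured probe sets of Sf3b6 were lower, by -0.91 to -0.64. Subunits of a single complex thus differed in both directions on these arrays. The median of the class, 0.27, became -0.03 when the probe sets of each gene were averaged.

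SR genes lay on both sides of 0, 4 of 9 within the range of the spikes, and Srsf2 and Srsf11 were the lowest. Srsf2, also known as SC35, had an intensity of 12204 untreated and 5313 with T+E2 on the probe set that gives its value, 2.30-fold lower (-1.20). A second Srsf2 probe set read 6325 and 6278 (-0.01), and the remaining measured one read 218 and 251 (0.21). The 2-fold call therefore rests on 1 of 3 measured probe sets, which lie on opposite sides. Srsf11 was at 11.21 and 10.45 (-0.75), and its 4 measured probe sets were all lower, from -0.16 to -1.77, where both of these ends have T+E2 set at the floor. Srsf5, a small SR protein gene, was at 12.80 and 12.44 (-0.36). Srsf3, whose protein also takes part in mRNA export, was at 13.91 and 13.69 (-0.22), with all 6 measured probe sets lower, by -0.48 to -0.22. Srsf10, a repressor when dephosphorylated, was at 10.92 and 10.81 (-0.11), with 4 of 4 probe sets lower, by -0.67 to -0.05. Srsf4 was the highest, at 8.88 and 9.34 (0.46) on its only probe set. Srsf9 (0.15), Srsf1 (0.05) and Srsf6 (0.01) were close to level. Over all SR probe sets, 22 of 30 measured lay under 0, where 43.1% of all measured probe sets did.

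Among hnRNP genes, Hnrnpul2 and Hnrnpul1, which encode relatives of hnRNP U, were the highest. Hnrnpul2 had an intensity of 1726 untreated and 3053 with T+E2 (1.77-fold, 0.82), with both probe sets higher. Hnrnpul1 was at 11.06 and 11.53 (0.47). Hnrnpa0, an intronless hnRNP gene, was at 13.25 and 13.69 (0.44), Hnrnph2 at 11.83 and 12.20 (0.37) and Hnrnpd, which encodes the AU-rich element binding protein AUF1, at 11.70 and 12.03 (0.33). All 3 probe sets of Hnrnpd were higher, up to 1.03. Hnrnpu (0.35), Hnrnpab (0.27) and Hnrnpm (0.24) were also above the spikes.

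Several hnRNP genes that are abundant in most cells were level on the probe sets that give their values. Hnrnpk was at 13.99 and 14.09 (0.09), Hnrnpa2b1 at 13.56 and 13.60 (0.04, with another probe set at -0.85), Hnrnpa1 at 12.80 on both arrays (-0.0070) and Hnrnpf at 13.34 and 13.33 (-0.01). Hnrnpr (0.09), Hnrnpll (0.01) and Hnrnpdl (-0.02) were close to 0 as well. Lower values were found for Hnrnph3 at 11.17 and 10.49 (-0.67), on its only probe set. Hnrnpc, which binds uridine tracts in introns, was at 13.42 and 13.02 (-0.40), with both measured probe sets lower. Hnrnpl, which binds CA repeats, was at 10.27 and 9.90 (-0.37), and Hnrnph1 at 13.43 and 13.21 (-0.21). The related genes Hnrnph1, Hnrnph2 and Hnrnph3 therefore did not lie on the same side.

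Probe sets of a gene read different stretches of its transcripts, and in these families they often parted. The 58 genes had 161 probe sets, of which 139 were measured. At least 2-fold higher were 3 of them (2.16%), against 6.28% of all measured probe sets, and at least 2-fold lower were 8 (5.76%), against 5.49%. Of these 8, 5 were not the probe set that gives the gene's value, and they held the 5 lowest values of the families. A probe set of Hnrnpu went from 1783 untreated to 288 with T+E2 (6.20-fold lower, -2.63) and another from 2469 to 1498 (-0.72). The other 3 Hnrnpu probe sets were higher, by 0.35 to 0.53. A probe set of Hnrnpa1 went from 1278 to 282 (4.54-fold lower, -2.18), while the probe set that gives its value lay at -0.0070. A probe set of Sf3b3 went from 135 to just under the floor, a difference of -2.07 with T+E2 set at the floor, while its other probe set was higher (0.38). A probe set of Srsf11 went from 109 to under the floor, -1.77 on the same basis. A probe set of Hnrnpdl went from 3589 to 1441 (-1.32), and all 7 Hnrnpdl probe sets lay under 0. Hnrnpab had 5 probe sets higher, by 0.23 to 0.65, and 2 lower, by -0.83 and -0.30. Of 36 genes with more than 1 measured probe set, 21 (58.3%) had all on the same side, compared with 70.5% of 4537 such genes on the array. Genes with more probe sets have more chances to part, and the number per gene was not matched. Of the 139 probe sets 56 lay above 0 and 81 below, where 56.3% and 43.1% of all measured probe sets did. Which exons, introns or ends these probe sets read was not analysed here.

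**Figure D3:**
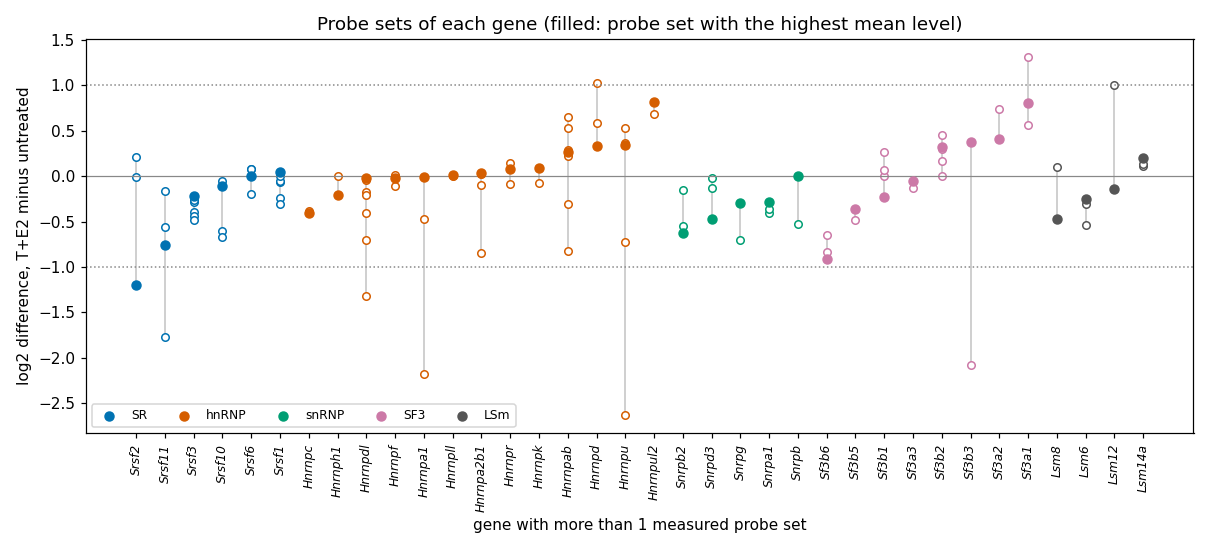
Log2 difference (T+E2 minus untreated) of every measured probe set of the 36 genes with more than 1; filled points are the probe set with the highest mean level, open points the others, grey lines their range, and dotted lines 2-fold. Hnrnpu, Hnrnpa1 and Sf3b3 each have an open point under -2 beside a filled point at or above -0.01.

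Across the array the difference grew with genomic span, the length of a gene from first to last base, and splicing factor genes are short. Their median span was 10.7 kb, against 24.5 kb for all measured genes. Across 10237 genes the Spearman correlation of difference and span was 0.38, and across the 55 members 0.24, where genes share the same 2 arrays and are not independent. By class it was 0.38 for SR, 0.37 for LSm, 0.28 for SF3 and 0.04 for hnRNP genes. For the 8 snRNP genes it was -0.52, opposite to the array. Among all measured genes of 5 to 10 kb the median difference was -0.15, and among the 20 members of that length -0.02. In the range of 10 to 20 kb the medians were -0.05 for all genes and -0.22 for 15 members. With the trend removed, the median of the 55 members was -0.0056, and 27 lay above 0 and 28 below, where 51.3% of all genes lay above and 48.7% below. LSm genes kept a median of -0.25 with 7 of 10 below 0, and snRNP genes -0.18 with 6 of 8 below. SF3 genes stood at 0.28, hnRNP genes at 0.15 and SR genes at -0.03. None of the members was then 2-fold higher (2.94% of all genes), and Srsf2 alone (-1.01) was 2-fold lower (4.19%). Sf3b5, with a span of 0.73 kb, moved from -0.36 to 0.03, whereas Sf3b6 stayed at -0.78 and Srsf11 at -0.78.

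**Figure D4:**
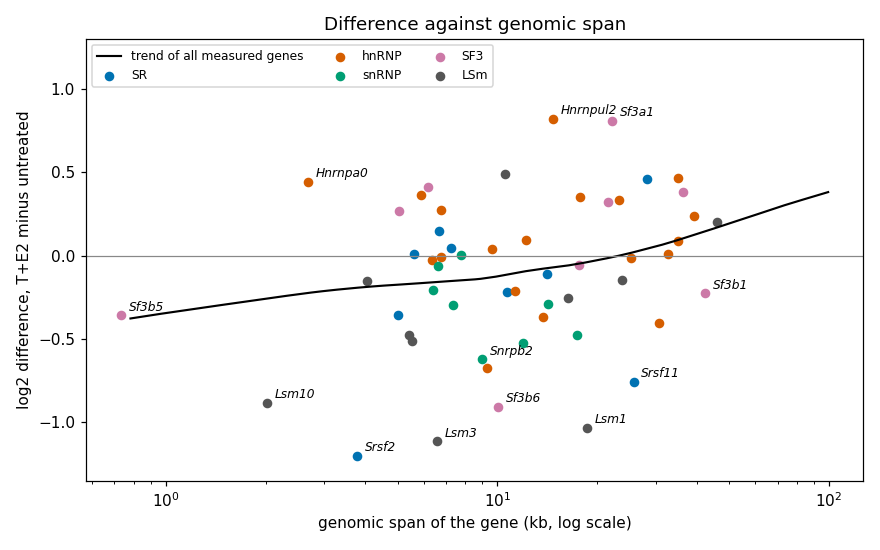
Log2 difference (T+E2 minus untreated) of the 55 measured genes against genomic span (kb, log axis), coloured by class, with the lowess trend of all measured genes as a black line. Srsf2, Lsm3, Lsm1, Sf3b6, Lsm10 and Srsf11 lie well below the line and Hnrnpul2, Sf3a1 and Hnrnpa0 well above it.

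Other genes of the splicing machinery were read from lists of known components. In the list of U5, tri-snRNP and Prp19 complex genes, 0 of 24 measured were 2-fold higher or lower, with 12 above 0, 12 below and a median of -0.02. Bcas2 of the Prp19 complex was lowest (-0.98), and Snrnp200, the U5 helicase that unwinds U4 from U6, highest (0.92). In the list of U2AF and branch site genes, which also holds Luc7-like genes, none of 14 was 2-fold different and the median was -0.13. Farthest from 0 were the Luc7-like gene Luc7l (-0.41) and U2af1 (-0.35), the 3′ splice site AG reader. Of 12 helicases and second-step factors, Dhx8, which releases mRNA from the spliceosome, was 2-fold higher (1.18), from 5.42, near the floor, to 6.60. Of 6 measured genes of the minor spliceosome, which removes the rare U12-type introns, 5 lay under 0, where 43.7% of all measured genes did. The median of the 6 was -0.54. Snrnp25 was 2-fold lower, at 10.87 and 9.60 (-1.27), where 4.01% of all measured genes were. None was 2-fold higher, where 4.96% of all measured genes were.

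Most genes that assemble snRNPs lay under 0. Of 14 measured, 12 lay under 0, where 43.7% of all measured genes did. At least 2-fold lower were 2 (4.01% of all genes) and 2-fold higher was 1 (4.96%). The median was -0.18, and -0.32 when the probe sets of each gene were averaged. Gemin8 (-1.33) and Gemin7 (-1.24), subunits of the SMN complex that loads Sm rings, were lower, and Gemin5 (1.06), the subunit that binds snRNA, was higher. Lsm10 belongs to this list too, and without it the median was -0.14. Among the genes under 0, Phax, Wdr77, Tgs1, Snupn, Prmt5 and Strap lay within the range of the spikes (-0.25 to 0.09).

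Regulators of SR proteins and other splicing regulators had no common direction. Of 11 SR protein kinases and partners, Clk4, a nuclear kinase of SR proteins, was 2-fold lower at 10.88 and 9.71 (-1.17). Of this list none was 2-fold higher, 4 lay above 0 and 7 below, and the median was -0.20. Of 20 SR-related and Tra2 genes none was 2-fold different and the median was 0.03, with Scaf4 at 0.90 and Srek1 at -0.86. Of 33 other splicing regulators, Rbm20, a regulator of titin splicing in muscle, was at least 2.29 (log2) higher, from under the floor to 7.29, none was 2-fold lower, and 21 lay above 0 with a median of 0.24. Of 9 exon junction and mRNA decay genes none was 2-fold different, with a median of 0.13, Smg1 at 0.37 and Smg6 at 0.32. With the span trend removed the last 2 medians were -0.02 and -0.02.

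Medians under 0 were also found outside the splicing machinery. Among genes of other large complexes chosen by symbol, 76 mitochondrial ribosomal protein genes had a median of -0.63 with 72 below 0. The 37 proteasome subunit genes had a median of -0.47 with 34 below 0. The 48 cytosolic ribosomal protein genes had a median of -0.04 with 36 below 0. With the span trend removed these medians were -0.45, -0.31 and 0.14, beside -0.25 for LSm and -0.18 for snRNP genes. No test of a difference between these groups was possible with 1 array each.

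**Figure D5:**
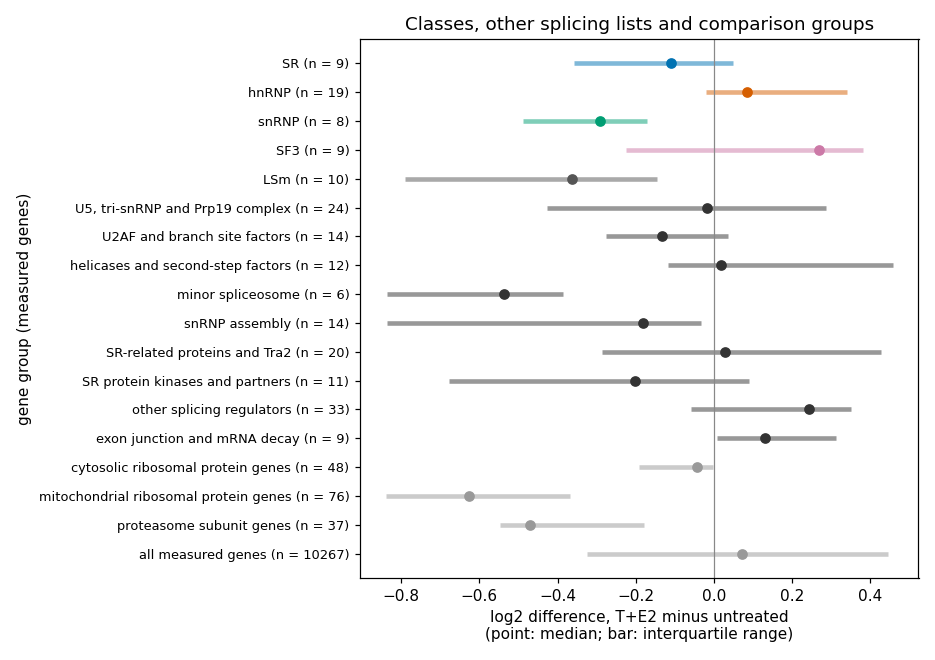
Median log2 difference (points, T+E2 minus untreated) and interquartile range (bars) of the 5 classes, the 9 other lists, 3 comparison groups and all measured genes, with the number of measured genes. snRNP, LSm and minor spliceosome genes lie under 0, as do mitochondrial ribosomal protein and proteasome genes.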

How the data were processed

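Gene expression was measured in 2 cultures, 1 array each. Values were made with GCRMA, per the submitters' processing notes, which name no version. The deposited table holds intensity values per probe set on a linear scale, normalized by the authors, from 3.82 to 67555 (untreated) and 3.75 to 71889 (T+E2). RNA was labelled as biotinylated cDNA with NuGEN kits, per the labels. Differences near the floor rest on low signal and are the least reliable.

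Here log2 was taken without further scaling, and a floor of 5 was applied to both arrays before subtraction. Probe sets were named from the platform annotation: of 45101, 34945 named 1 gene, 932 several, and 64 were controls. A gene's value is its probe set with the highest mean log2. All 58 members matched the RefSeq table (GRCm38.p6), used for span and promoters. Span trends were removed by lowess (fraction 0.3, statsmodels 0.14.6) over all measured genes. The steps were tested on simulated data. Samples were grouped by their treatment label. Members and lists were chosen with earlier results of these data known. Genes named were all members past 2-fold, the 3 highest and lowest of each class, members under the floor and those with opposed probe sets; from lists, up to 4 past 2-fold or the 2 largest. Remaining members are given to complete each class, and the promoter motifs were chosen after the values were seen. Alternatives covered floors, probe set choice, centring, trends and symbols.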

Additional observations from a re-analysis of the deposited data

How the results depend on the processing

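Across 158 alternative values of the class medians, distances, counts and list medians, 134 stayed within the spread of the spikes (SD 0.12) or within 1.5 times the count and 19 moved. The other 5 changed sign from a value beyond that SD, and sign changes from a smaller value are not in this count. Some of the 134 could not have changed. No member had its symbol updated, and centring leaves distances between classes as they are. Measured members lay at 7.63 or more untreated and 7.90 or more with T+E2, so neither the raised floor nor the floor on both arrays altered a member value. With the mean of all probe sets the medians were -0.23 (SR), -0.030 (SF3, sign changed), -0.23 (LSm) and -0.18 (all members), and distances to hnRNP were -0.24 (LSm) and -0.040 (SF3, sign changed). The lists then stood at -0.27 (LSm2 to LSm8), -0.19 (SR-related, sign changed from 0.03), -0.036 (other regulators, sign changed) and -0.32 (snRNP assembly). With the median of measured probe sets SR stood at -0.25, SF3 at 0.13, SF3 to hnRNP at 0.045 and SR to hnRNP at -0.34, and 1 member, Hnrnpd, was 2-fold higher. Without probe sets marked as cross-matching, snRNP stood at -0.52, LSm at -0.49, LSm to hnRNP at -0.58 and snRNP to hnRNP at -0.61. With the span trend removed 1 member was 2-fold lower, and lists stood at -0.049 (Sm core), -0.30 (LSm2 to LSm8), -0.020 (other regulators, sign changed) and -0.017 (exon junction, sign changed). The SR-related list stood at -0.089 on that basis, also with its sign changed. Genes 2-fold lower were Lsm3 and Srsf11 with mean probe sets, these and Lsm1 with median probe sets, and Lsm1 and Lsm3 without cross-matching ones. The cause was not tested. Medians of snRNP and LSm genes lay under 0, and that of hnRNP genes above 0, in the alternatives run. No paired analysis was possible because each group had 1 array. Signal near the floor and the absence of replicates limit every value.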

Other observations

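Some genes of these families were reached only by probe sets that name other loci as well, and they are outside every count above. There were 5 such genes. Snrpd1 was at 12.77 untreated and 12.16 with T+E2 (-0.61) and Snrpd2 at 13.98 and 13.25 (-0.73), both encoding Sm core proteins. Lsm5, of the U6 ring, was at 11.35 and 10.48 (-0.86). Snrpa, the U1-A protein gene, was at 10.88 and 11.13 (0.25). Hnrnpa3 had 4 probe sets, from 0.01 to 0.42. Hnrnpa1 also had 3 shared probe sets, at 0.08 to 0.11. Signal from the other genes named cannot be told apart in these values.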
